A study of Mus musculus with 2 samples.

Results

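The 9 genes of fibroblast growth factor (FGF) signalling described here, in cells of the embryonic mouse brain, were the receptors *Fgfr1*, *Fgfr2* and *Fgfr3*, the inhibitors *Spry1*, *Spry2* and *Dusp6*, and the ETS transcription factors *Etv1*, *Etv4* and *Etv5*. They were taken by name, with earlier results of these data known. All 9 of the 9 listed genes were among the 32285 genes counted in both embryos. Single-cell RNA sequencing was done on 2 embryos of embryonic day 16.5, numbered 4 and 5, each giving 1 10x Genomics 3′ library. Both embryos had the WT genotype and were control animals from a line carrying *Eomes*-Cre, and no treatment is given for either, so cell classes and not conditions were compared. The labels give brain hemispheres as the tissue with the cortex dissected and dissociated in papain, while the reporting summary of the study gives its single cells of this stage as coming from the basal telencephalon. The mice were of the strain C57BL/6J. GABAergic cells of the kinds born in the ganglionic eminences were part of both libraries.

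FGF ligands bind receptor tyrosine kinases of the Fgfr family, which signal through adaptors, Ras, Raf and MEK to the kinase ERK. ERK signalling raises transcription of its own inhibitors, among them Sprouty proteins, which act on the receptor pathway, and Dusp6, a phosphatase that removes phosphate from ERK, and of the Pea3 subfamily of ETS factors, to which Etv1, Etv4 and Etv5 belong. In the developing cortex the pathway is known for patterning of the early telencephalon and for keeping radial glial cells in the progenitor state. RNA was measured here, and the phosphorylation of ERK was not.

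The promoters of 7 members were read from RefSeq (GRCm38.p6, 250 bases before to 50 bases after a transcription start) and searched on both strands for AGGAAG, the core bound by Pea3-type factors, and for the longer ETS sequence CCGGAAGT. AGGAAG was in the windows of *Fgfr2*, *Dusp6*, *Etv1* and *Etv5*, and is shown because these factors are members themselves and bind sequences of this kind. Of all 32851 windows, 35.4% held AGGAAG and 3.89% held CCGGAAGT. These shares are per window, while the members are listed per gene and some had 2 windows. The number of members with a match is therefore not comparable with them. The matches stand below 5′ to 3′ on the strand of the gene with the 6 bases in capitals, written CTTCCT where the match was on the other strand.

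Fgfr2 (chr7:130267000-130267027, minus strand, GRCm38.p6): tttaagaaggcAGGAAGcactctgaact
Fgfr2 (chr7:130266759-130266781, minus strand, GRCm38.p6): tcacgtgttccCTTCCTaaagga
Dusp6 (chr10:99263010-99263037, plus strand, GRCm38.p6): tcttctttctcCTTCCTcccgccgagcc
Etv1 (chr12:38780063-38780090, plus strand, GRCm38.p6): aacagcgagttAGGAAGgaagtagtttc
Etv5 (chr16:22438351-22438378, minus strand, GRCm38.p6): cgacgacacaaAGGAAGtggtttaaact

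The match of *Etv1* began 8 bases before the start (position -8) and overlapped another at position -4, and that of *Etv5* began at position 1. *Fgfr3*, *Etv1* and *Etv5* had 2 windows each, at different starts, and the *Etv5* match is in the window of a start inside the gene, not of the outermost start, whose window held none. The *Fgfr2* matches lay at positions -208 and 38 and that of *Dusp6* at -210. The windows of *Fgfr3*, *Spry1* and *Spry2* did not hold these 6 letters, no member's window held CCGGAAGT, and *Fgfr1* and *Etv4* were not searched. A match describes the letters and is no measure of binding. In the same build the genes lie at chr8:25518759-25575718 (*Fgfr1*), chr7:130162451-130266808 (*Fgfr2*), chr5:33721724-33737068 (*Fgfr3*), chr3:37639947-37644599 (*Spry1*), chr14:105891947-105896819 (*Spry2*), chr10:99263231-99267489 (*Dusp6*), chr12:38780082-38870483 (*Etv1*), chr11:101769747-101785310 (*Etv4*) and chr16:22381313-22439570 (*Etv5*).

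After filtering, 9932 cells of embryo 4 and 10416 of embryo 5 were kept, with a median of 10064 and 8840 UMIs per cell, the unique molecular identifiers that each stand for 1 captured RNA molecule. Clusters were named by marker genes, none of them a member. Progenitors were radial glial cell (RGC)-like cells, 1284 in embryo 4 and 1382 in embryo 5, and intermediate progenitor cell (IPC)-like cells, 903 and 969. Neurons numbered 7189 and 7494. The summed level of 8 RGC markers was 6611 and 6440 CPM (counts per 1000000 UMIs) in RGC-like cells against 275 and 224 in neurons, and that of 6 IPC markers was 2192 and 2115 in IPC-like against 243 and 184 in RGC-like cells. These are the markers that named the clusters, so their levels describe the classes and are no separate check of the names. Of the kept barcodes, 27 occurred in both libraries.

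UMIs were summed per embryo and class, so every level below is a CPM of such a sum and n = 2 embryos throughout. Tests were made with edgeR's quasi-likelihood test on the sums, a gene was called at a Benjamini-Hochberg adjusted p under 0.05, and a fold is that of the fit. The p-values rest on the spread between these 2 embryos, with the spread of each gene drawn towards that of all genes tested. The main fit did not pair the sums of the same embryo. All 9 members passed the filter on low counts in each of the 6 comparisons. The comparisons share sums (RGC-like cells are part of the progenitors) and are not independent of each other.

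Progenitors and neurons were compared first, which asks where the pathway's receptors and response genes are transcribed in these embryos. Of the 9 members, 7 were higher in progenitors, *Dusp6* was higher in neurons and *Spry1* was not called. Of all 18282 genes tested, 67.2% were called, 32.3% as higher and 34.9% as lower in progenitors, so being called was the common outcome. The median log2 fold change was 0.89 over the members and -0.03 over all genes. As the members were chosen with earlier results of these data known, such counts and medians describe the list only.

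**Figure D1:**
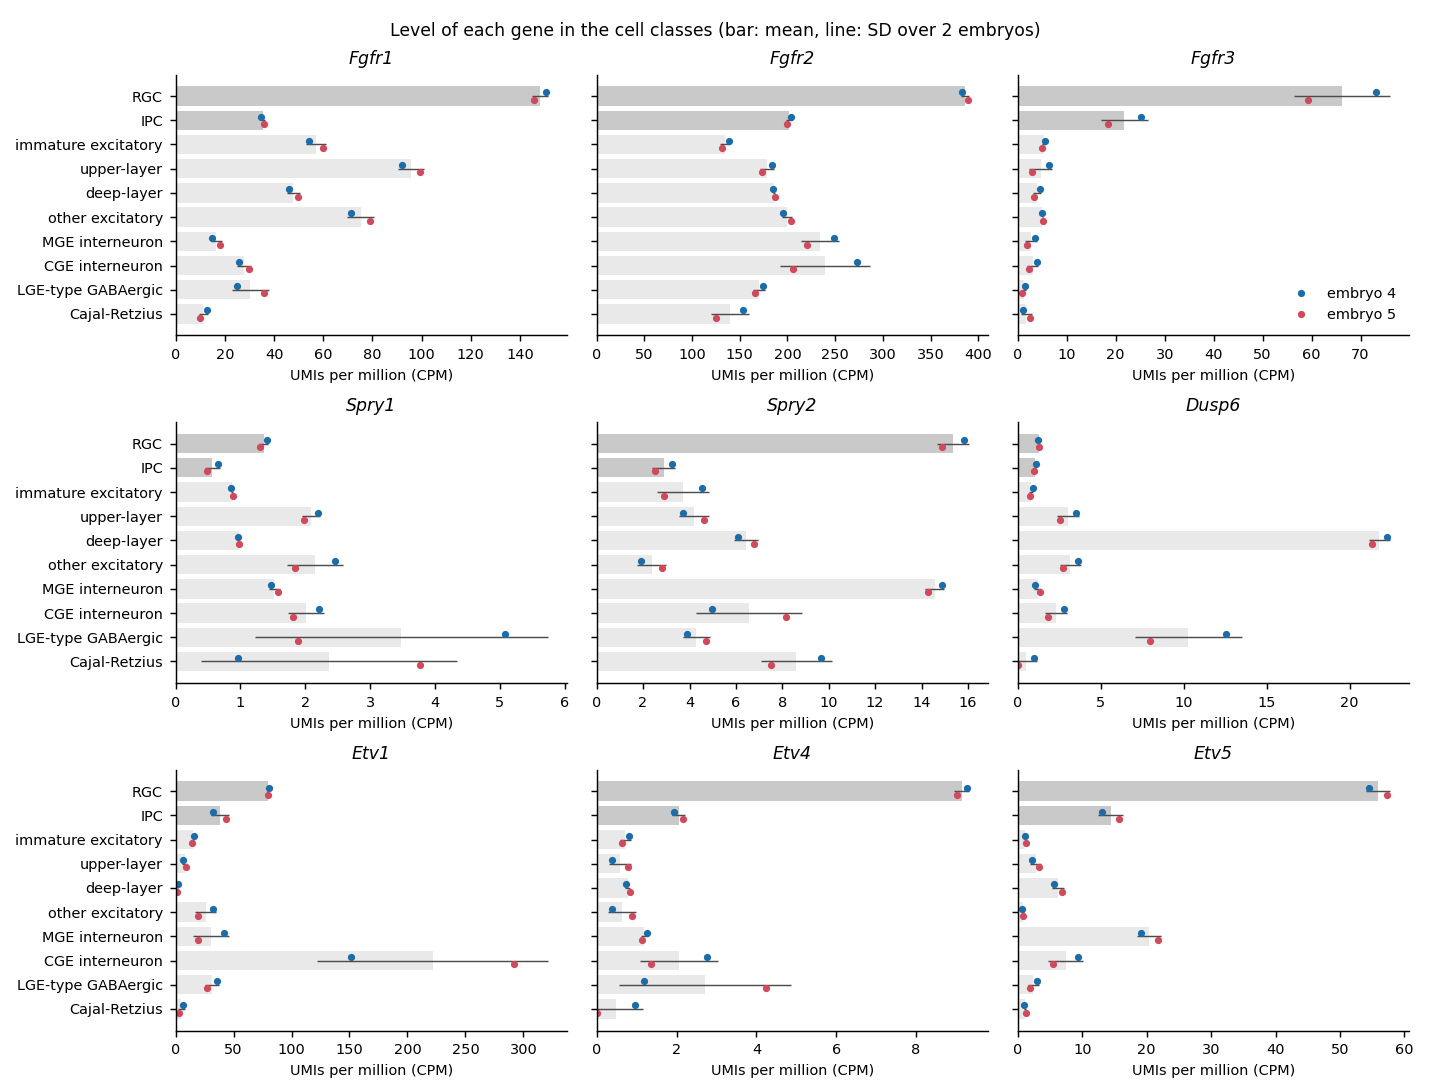
CPM of each member (x axis, linear, its own range in each panel) in 10 cell classes (rows, dark for progenitors and light for neurons). Bars are the mean of 2 embryos, lines the SD and points the embryos. RGC-like cells hold the highest bar for *Fgfr1*, *Fgfr2*, *Fgfr3*, *Spry2*, *Etv4* and *Etv5*, deep-layer neuron-like cells for *Dusp6* and CGE interneuron-like cells for *Etv1*.

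Among the receptors, *Fgfr3* stood at 54.7 CPM in the progenitors of embryo 4 and 44.4 in those of embryo 5, against 4.84 and 3.83 in neurons. The level was 10.2-fold higher in progenitors (log2 fold change 3.35, SE 0.142, adjusted p = 1.53e-06). *Fgfr1* was at 106 and 106 CPM in progenitors and at 53.7 and 60.8 in neurons, a 1.66-fold difference (log2 fold change 0.73, SE 0.0798, adjusted p = 0.000185). *Fgfr2* was at 314 and 320 CPM in progenitors and at 179 and 174 in neurons, 1.61-fold higher in progenitors (log2 fold change 0.68, SE 0.0557, adjusted p = 3.97e-05). All 3 receptors were thus higher in progenitors than in the sum of all neurons, which pools classes of unlike level, from 12.6 and 10 CPM of *Fgfr1* in Cajal-Retzius to 92 and 99.4 in upper-layer neuron-like cells.

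Among the inhibitors the members went different ways. *Dusp6* was at 1.16 and 1.18 CPM in progenitors and at 8.45 and 7.36 in neurons, 7.54-fold higher in neurons (log2 fold change of progenitors over neurons -2.91, SE 0.163, adjusted p = 5.71e-06). *Spry2* was at 11 and 10.4 CPM in progenitors and at 5.15 and 5.19 in neurons (1.85-fold, log2 fold change 0.89, SE 0.104, adjusted p = 0.000261). *Spry1* was low in both, with 1.12 and 1.01 CPM in progenitors and 1.57 and 1.36 in neurons, and did not pass the test (log2 fold change -0.62, SE 0.247, adjusted p = 0.0595). In 1 fit over all classes *Dusp6* kept its call at -1.30 while *Spry2* lost it at 0.21 (adjusted p = 0.23), and *Spry2* was at 0.52 with the classes weighted equally. *Spry1* was at -1.06 in that fit (adjusted p = 0.00208), passed the test in 3 of 16 alternative settings and was at -1.01 with equal weights.

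All 3 ETS factors were higher in progenitors. *Etv5* was at 38.6 and 42.1 CPM in progenitors and at 3.88 and 4.48 in neurons, 8.65-fold higher in progenitors (log2 fold change 3.11, SE 0.103, adjusted p = 5.17e-07). *Etv4* was at 6.45 and 6.52 CPM against 0.765 and 0.904 (6.94-fold, log2 fold change 2.80, SE 0.188, adjusted p = 1.51e-05). *Etv1* was at 62.1 and 66.4 CPM against 19.3 and 20.2 (2.91-fold, log2 fold change 1.54, SE 0.0710, adjusted p = 2.22e-06). The value of *Etv1* depended on which neurons were counted, being 0.50 on the log2 scale with each class weighted equally and 2.25 against excitatory neurons alone.

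Depth and markers of other cells were measured beside these folds. The median was 10574 and 9056 UMIs per cell in progenitors and 9986 and 8817.5 in neurons. The summed level of 5 pericyte markers, all with UMIs in both groups, was 6.91 and 7.53 CPM in progenitors and 2.55 and 1.92 in neurons, beside 8958 and 6728 in pericyte-like cells. The summed level of 5 markers of oligodendrocyte precursors was 4.51 and 4.99 CPM against 0.993 and 0.832, and that of 5 erythroid markers was 805 and 2214 CPM in progenitors against 957 and 1704 in neurons. The part of these RNAs in the members' levels was not tested.

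**Figure D2:**
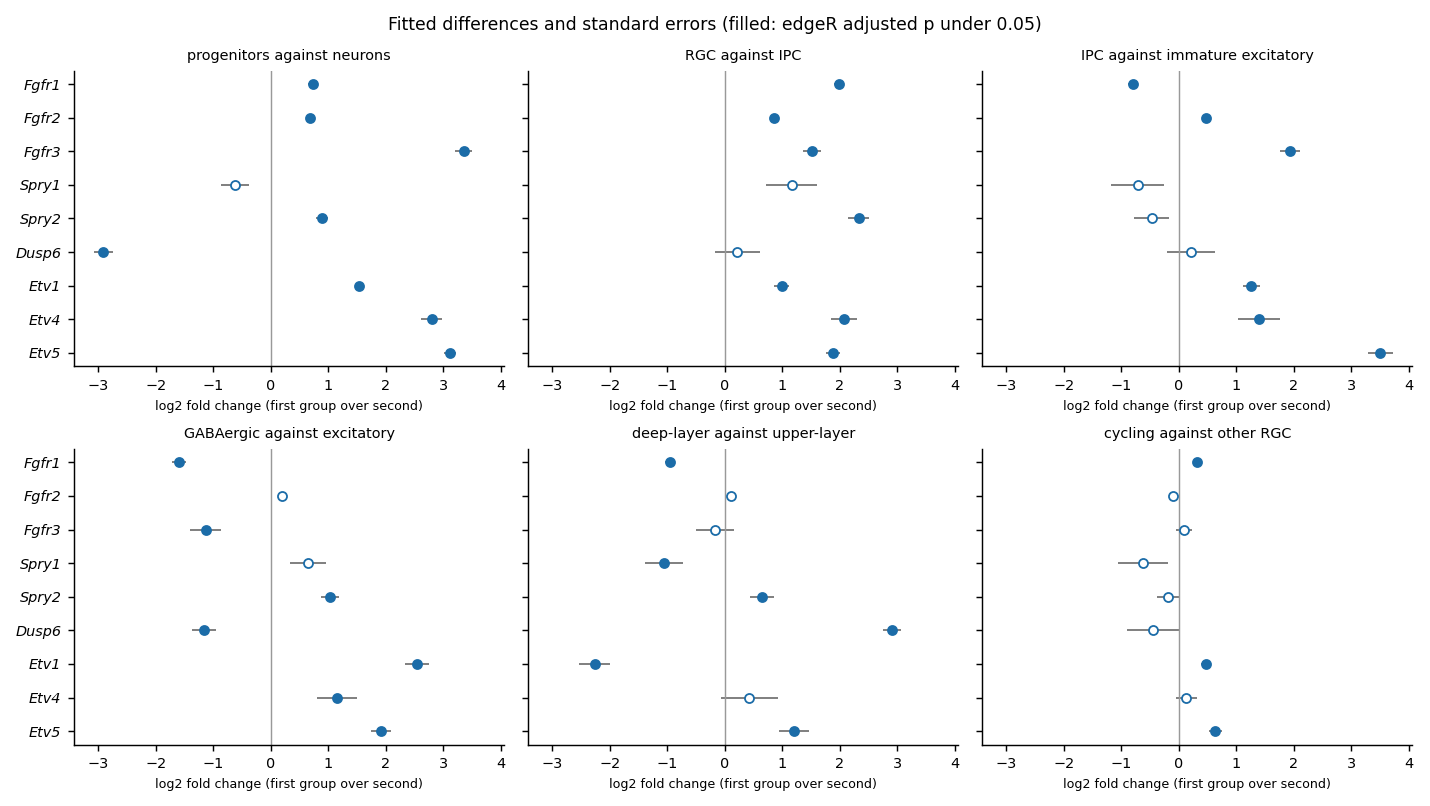
Log2 fold change of each member in 6 comparisons of cell classes (1 panel each), with lines for the SE. Filled points passed an adjusted p under 0.05 (edgeR, n = 2 embryos). The ETS factors lie right of 0 in the comparisons of progenitors over neurons, RGC-like over IPC-like cells and IPC-like cells over immature neurons, while *Dusp6* lies far left for progenitors over neurons and far right for deep-layer over upper-layer neurons.

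Within the progenitors, RGC-like cells, which line the ventricle and divide to give neurons and further progenitors, were compared with IPC-like cells, their neurogenic daughters marked by *Eomes*. Of the 9 members, 7 were higher in RGC-like cells, none was lower, and *Spry1* and *Dusp6* did not pass the test. The background was 49.8% of 14851 genes called, 25.3% as higher and 24.5% as lower in RGC-like cells. The median log2 fold change was 1.52 over the members and -0.01 over all genes.

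*Fgfr1* fell between these progenitor classes from 151 and 146 CPM in RGC-like cells to 34.9 and 36 in IPC-like cells (3.96-fold, log2 fold change 1.98, SE 0.0792, adjusted p = 7e-07). *Fgfr3* was at 73.2 and 59.3 CPM against 25.1 and 18.4 (2.87-fold, adjusted p = 9.92e-05). *Fgfr2* was at 383 and 389 CPM against 204 and 199 (1.81-fold, adjusted p = 2.74e-05). The IPC-like level of *Fgfr1* was below that of all excitatory classes of neurons, while the IPC-like level of *Fgfr3* was above that of all 8 neuron classes.

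*Spry2* was 5.01-fold higher in RGC-like cells, with 15.8 and 14.9 CPM against 3.23 and 2.53 (log2 fold change 2.32, SE 0.184, adjusted p = 2.57e-05). *Etv4* was at 9.27 and 9.01 CPM in RGC-like cells against 1.94 and 2.16 (4.21-fold, adjusted p = 0.000148). *Etv5* was at 54.5 and 57.3 CPM against 13 and 15.8 (3.68-fold, adjusted p = 6.55e-06), and *Etv1* at 80.5 and 79.4 against 32.7 and 43.7 (1.99-fold, adjusted p = 0.00041). No embryo's RGC-like level overlapped an IPC-like level for these 4 genes. The share of all genes without overlap was not counted, so this describes the values and adds nothing to the test. *Dusp6* was at 1.21 and 1.31 CPM in the former and 1.08 and 0.962 in the latter (log2 fold change 0.22, SE 0.395, adjusted p = 0.676). *Spry1* was at 1.41 and 1.31 against 0.647 and 0.481 (log2 fold change 1.17, SE 0.444, adjusted p = 0.0592), and it passed the test in 3 of 12 alternative settings.

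The share of cells with a UMI was also taken after thinning cells to 2000 UMIs, leaving out cells with fewer (18 and 16 RGC-like cells and 52 and 57 neurons), and is given for *Fgfr3* and *Etv5*. *Fgfr3* was found in 48.3% of the RGC-like cells of embryo 4 (95% exact binomial interval 45.5 to 51.1) and 38.9% of those of embryo 5 (36.3 to 41.5), and in 4.77% and 3.35% of neurons. In thinned cells these shares were 14.6% and 11.6% of RGC-like cells and 0.855% and 0.874% of neurons. No class compared here is known to lack *Fgfr3*. Haemoglobin-led cells, left outside the classes, had 21.1 and 17.8 CPM of *Fgfr3* from 13 and 6 UMIs. IPC-like cells had 25.1 and 18.4 CPM. The source of the *Fgfr3* RNA in haemoglobin-led cells was not tested. The class with the lowest level, LGE-type GABAergic neuron-like cells, had a share of 1.06% and 0.769% before thinning at a median of 8336 and 7316 UMIs per cell, against 11177.5 and 9929.5 in RGC-like cells. *Etv5* was found in 34.3% and 34.2% of RGC-like cells and in 0.971% and 1.01% of immature excitatory neuron-like cells, and in thinned cells in 9.40% and 10.5% against 0.0889% and 0.253%. The intervals cover counting error only.

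IPC-like cells were then compared with immature excitatory neuron-like cells, the class marked by *Neurod1* and *Unc5d* that follows them in neurogenesis. Of the members, 5 were higher in IPC-like cells (*Fgfr2*, *Fgfr3*, *Etv1*, *Etv4* and *Etv5*), *Fgfr1* was lower, and *Spry1*, *Spry2* and *Dusp6* did not pass the test. The background was 50.8% of 14798 genes called, 24.8% as higher and 25.9% as lower in IPC-like cells.

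*Etv5* had the largest fold of the members here, with 13 and 15.8 CPM in IPC-like and 1.09 and 1.25 in immature neurons (11.3-fold, log2 fold change 3.50, SE 0.22, adjusted p = 2.85e-06). *Fgfr3* was at 25.1 and 18.4 CPM against 5.61 and 5 (3.80-fold, adjusted p = 2.7e-05), and *Etv1* at 32.7 and 43.7 against 15.6 and 13.8 (2.40-fold, adjusted p = 0.000131). *Fgfr1* went the other way, with 34.9 and 36 CPM in IPC-like cells and 54.3 and 60 in immature neurons (1.74-fold higher in immature neurons, log2 fold change -0.80, SE 0.0902, adjusted p = 0.000111). *Fgfr1* was therefore at its lowest point along RGC-like, IPC-like and immature neuron-like cells in the IPC-like class. *Fgfr2*, *Fgfr3*, *Etv1*, *Etv4* and *Etv5* were lower at each step.

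*Fgfr2* was at 204 and 199 CPM in IPC-like cells and at 138 and 131 in immature neurons (1.39-fold, adjusted p = 0.000292). *Etv4* was at 1.94 and 2.16 CPM against 0.809 and 0.625 (2.62-fold, adjusted p = 0.013), and the inhibitors were all under 5 CPM in both classes. With clusters at resolution 0.5 the call of *Fgfr1* was lost at -0.24 (adjusted p = 0.0752). That of *Etv4* was lost with at most 5% mitochondrial counts (0.71, adjusted p = 0.155) and with DESeq2 (adjusted p = 0.115).

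Cycling RGC-like cells, a cluster led by division genes such as *Prc1* and *Cenpf*, were set against the other RGC-like cells. *Etv5*, *Etv1* and *Fgfr1* were higher in the cycling cells, no member was lower and 6 did not pass the test, where 12.4% of 13748 genes were called, 8.60% as higher and 3.78% as lower. *Etv5* was at 69.5 and 64.4 CPM in cycling and 42.9 and 49.9 in other RGC-like cells (1.55-fold, adjusted p = 0.00969). *Etv1* was at 92.6 and 89.2 CPM against 71.2 and 69.3 (1.39-fold, adjusted p = 0.0107), and *Fgfr1* at 164 and 156 against 140 and 136 (1.25-fold, adjusted p = 0.038). These differences were small and less stable than those above, since the call was kept by *Etv5* in 11 of 12 alternative settings, by *Fgfr1* in 7 and by *Etv1* in 6. With the embryo number as a replicate block 4072 genes were called in place of 1702, and the same 3 members passed. The cycling cluster had a median of 14483 UMIs per cell against 9172 in the other, and in cells thinned to 2000 UMIs *Fgfr1* was at 0.17 on the log2 scale (adjusted p = 0.494). *Fgfr3* was alike in level, with 70 and 61.4 CPM in cycling and 75.7 and 57.2 in other RGC-like cells (log2 fold change 0.08, SE 0.14, adjusted p = 0.738).

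The IPC-like class held a cycling cluster too, for which the levels are given without a test. *Etv1* was at 56.4 and 69.5 CPM in cycling and 24 and 33.1 in other IPC-like cells, and *Etv5* at 28.6 and 32 against 7.35 and 9.13. *Fgfr3* was lower in the cycling IPC-like cells of both embryos, at 11.7 and 12.5 CPM against 30 and 20.8.

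GABAergic neuron-like cells, inhibitory neurons of the kinds born in the ganglionic eminences, were compared with excitatory neuron-like cells. Of the members, 4 were higher in GABAergic cells (*Spry2* and all 3 ETS factors), 3 were lower (*Fgfr1*, *Fgfr3* and *Dusp6*), and *Fgfr2* and *Spry1* did not pass the test. The background was 36.6% of 17388 genes called, 17.7% as higher and 18.9% as lower in GABAergic cells.

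*Etv1* was at 59.6 and 90 CPM in GABAergic and 13.2 and 10.3 in excitatory neurons (5.82-fold, log2 fold change 2.54, SE 0.203, adjusted p = 4.3e-05). *Etv5* was at 11.9 and 12.8 CPM against 2.67 and 3.31 (3.76-fold, adjusted p = 9.13e-05), and *Spry2* at 9.36 and 10.4 against 4.42 and 4.4 (2.04-fold, adjusted p = 0.00119). *Fgfr1* was 3.03-fold higher in excitatory neurons, which had 59.5 and 66.6 CPM against 20.3 and 25.4 (log2 fold change -1.60, SE 0.124, adjusted p = 3.58e-05). In these 4 genes the embryos' values did not overlap between the groups. The share of all genes without overlap was not counted, so this too describes the values only.

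*Fgfr3* was at 2.92 and 1.72 CPM in GABAergic and 5.21 and 4.15 in excitatory neurons (adjusted p = 0.0129), *Dusp6* at 5.23 and 3.09 against 9.08 and 8.08 (adjusted p = 0.00376) and *Etv4* at 1.51 and 1.94 against 0.645 and 0.764 (adjusted p = 0.0322). These low levels gave calls that were lost in some settings. *Fgfr3* lost its call with doublets kept (-0.82, adjusted p = 0.0574), *Dusp6* in 2 of 13 alternative settings (-0.24 at cluster resolution 2, adjusted p = 0.511, and -0.38 in 1 fit over all classes, adjusted p = 0.177) and *Etv4* in 5 of 13 alternative settings. *Fgfr2*, at 228 and 203 CPM against 172 and 170, missed the threshold (log2 fold change 0.20, SE 0.0721, adjusted p = 0.0602) and passed it in 7 of 13 alternative settings, among them the embryo number as a replicate block (adjusted p = 0.0306).

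Within the GABAergic neurons the classes differed more than the sum shows. *Etv1* was at 151 and 292 CPM in CGE interneuron-like cells, marked by *Adarb2* and *Prox1*, the highest level of any class in both embryos, though the embryos stood far apart. The leading genes of this CGE cluster included *Adarb2* and the LGE-type marker *Pbx3*, but not *Prox1*. At resolution 0.5 no separate LGE-type cluster was left. MGE interneuron-like cells, marked by *Lhx6* and *Nxph1*, had 41.9 and 19.7 CPM of *Etv1*, and LGE-type cells, marked by *Isl1* and *Meis2*, had 35.3 and 26.8. *Isl1*, *Six3* and *Lhx8* were among the leading genes of the LGE-type cluster, and *Meis2* was not. *Etv5* was highest among neurons in MGE interneuron-like cells, at 19 and 21.7 CPM against 9.38 and 5.45 in CGE and 2.99 and 1.88 in LGE-type cells. *Spry2* was likewise at 14.9 and 14.3 CPM in MGE interneuron-like cells, close under the 15.8 and 14.9 of RGC-like cells, and at 4.96 and 8.18 and 3.89 and 4.7 in the other GABAergic classes.

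*Dusp6* was at 12.6 and 8 CPM in LGE-type GABAergic cells against 1.05 and 1.36 in MGE and 2.76 and 1.82 in CGE interneuron-like cells. *Fgfr2* overlapped between MGE and CGE interneuron-like cells, at 248 and 220 and at 273 and 206 CPM, and both values of LGE-type cells, 174 and 166, lay below these. *Spry1* was at 5.08 CPM in LGE-type cells of embryo 4 and 1.88 in those of embryo 5, a spread that overlapped the values of the next 4 classes. Cajal-Retzius neuron-like cells, 68 and 56 cells in number, had the lowest *Fgfr1* of any class at 12.6 and 10 CPM. No UMI of *Dusp6* or *Etv4* was seen there in embryo 5, which allows up to 3.76 CPM.

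Deep-layer neuron-like cells, of the classes that send axons out of the cortex, were compared with upper-layer neuron-like cells, which mostly project within it. *Dusp6*, *Spry2* and *Etv5* were higher in deep-layer cells, *Fgfr1*, *Spry1* and *Etv1* were lower, and *Fgfr2*, *Fgfr3* and *Etv4* did not pass the test. The background was 34.0% of 14469 genes called, 17.8% as higher and 16.2% as lower in deep-layer cells. Summed over 7 deep-layer markers, the level was 8700 and 8654 CPM in deep-layer and 3171 and 3294 in upper-layer cells. Over 6 upper-layer markers it was 318 and 315 CPM in deep-layer and 3613 and 3634 in upper-layer cells.

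*Dusp6* was at 22.3 and 21.3 CPM in deep-layer and 3.48 and 2.54 in upper-layer cells (7.52-fold, log2 fold change 2.91, SE 0.158, adjusted p = 2.87e-06), and the call held in all 13 alternative settings. A UMI of *Dusp6* was found in 23.9% and 19.8% of deep-layer cells and in 1.40% and 1.30% of RGC-like cells. All 3 deep-layer clusters carried it, with 28.7 and 29.3 CPM in the cluster led by *Hs3st4*, 17.5 and 13.7 in that led by *Ldb2* and 16.9 and 18.4 in that led by *Mctp1*. No other class of neurons reached these levels, and LGE-type GABAergic cells came next.

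*Fgfr1* was at 45.9 and 49.8 CPM in deep-layer and 92 and 99.4 in upper-layer cells (1.94-fold higher in upper-layer cells, log2 fold change -0.96, SE 0.0806, adjusted p = 4.13e-05). With at least 2000 detected genes per cell the log2 fold change was -2.69. Its deep-layer level came from unequal clusters, with 15.6 and 17.4 CPM in the *Hs3st4* cluster, where *Dusp6* was highest, and 76.8 and 75.3 in the *Ldb2* cluster. *Etv5* was at 5.61 and 6.89 CPM against 2.19 and 3.31 (2.30-fold, adjusted p = 0.00823) and kept its call in all 13 alternative settings.

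*Spry2* was at 6.07 and 6.79 CPM in deep-layer and 3.74 and 4.64 in upper-layer cells (adjusted p = 0.0423), and *Spry1* at 0.965 and 0.977 against 2.19 and 1.99 (adjusted p = 0.0402), and these calls were lost in 2 of 13 and 5 of 12 alternative settings. *Etv1* was at 1.7 and 1.44 CPM in deep-layer and 6.45 and 9.06 in upper-layer cells (4.79-fold, adjusted p = 0.000314). The upper-layer clusters differed, with *Etv1* at 12.7 and 15.9 CPM in the upper-layer cluster led by *Gm49678* and at 1.19 and 0.735 in the other upper-layer cluster. The cluster led by *Gm49678* also had the deep-layer marker *Ldb2* among its leading genes. The call of *Etv1* was kept in 7 of 13 alternative settings. The direction turned with at least 500 detected genes (0.25), with doublets kept (0.41) and at resolutions 0.5 (0.0567) and 2 (0.33), all without passing the test, and the cause was not tested.

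**Figure D3:**
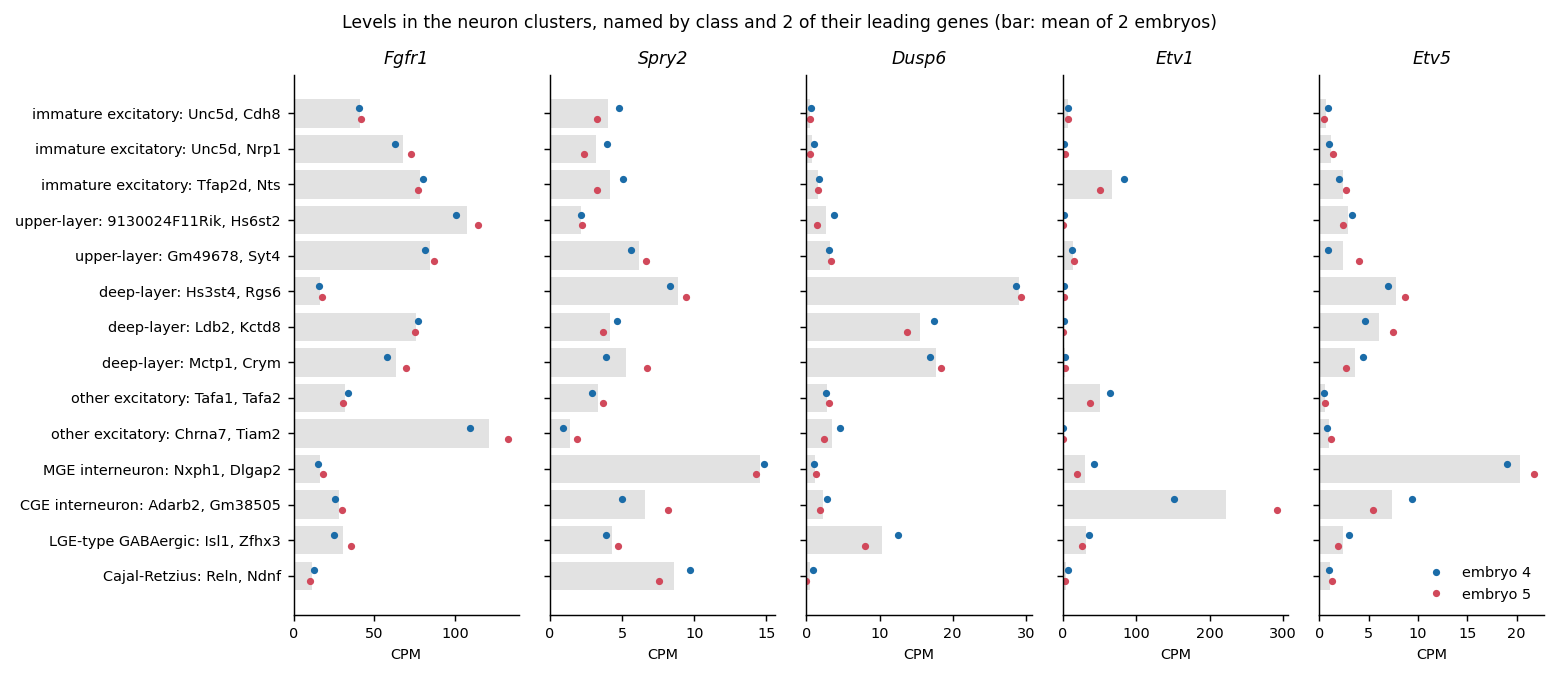
CPM of *Fgfr1*, *Spry2*, *Dusp6*, *Etv1* and *Etv5* (x axis, its own range in each panel) in each of 14 neuron clusters (rows, named by class and 2 of their leading genes), with bars for the mean and points for the 2 embryos. *Dusp6* is highest in the 3 deep-layer clusters, and *Etv1* is high in the CGE interneuron-like cluster and in the excitatory clusters led by *Tfap2d* and *Tafa1*.

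Over the other excitatory clusters *Etv1* was uneven as well. It was at 82.7 and 50.7 CPM in the immature cluster led by *Tfap2d* and at 64.3 and 36.4 in the cluster led by *Tafa1*, but at 1.78 and 2.8 in the immature cluster led by *Unc5d* and *Nrp1* and at 0.765 and 0.844 in the cluster led by *Chrna7*. *Fgfr1* went the other way in the cluster led by *Chrna7*, at 109 and 133 CPM, against 33.5 and 30.4 in that led by *Tafa1*.

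The classes can be put in the order of their levels for each gene. RGC-like cells came first for *Fgfr1*, *Fgfr2*, *Fgfr3*, *Spry2*, *Etv4* and *Etv5*, and their embryos' values lay above those of the next class, except that for *Spry2* the lower RGC-like value and the higher MGE interneuron-like value were both 14.9 CPM. For *Fgfr3* the neuron classes could not be ordered, since each neighbour in the order overlapped the next between 5.31 ± 0.435 CPM (SD) in immature neurons and 1.22 ± 0.392 in LGE-type GABAergic cells. For *Spry1* the first 5 classes overlapped. In cells thinned to 2000 UMIs the class with the highest share of cells with a UMI was the same as that with the highest CPM for 8 of the 9 members, *Spry1* being the exception.

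A cluster with markers of both RGC-like and GABAergic cells stayed outside the classes compared, with 270 cells in embryo 4 and 331 in embryo 5. It had 91.1 and 164 CPM of *Etv1*, 27.9 and 38.2 of *Etv5* and 15.1 and 18.1 of *Spry2*, near or above the RGC-like levels of *Etv1* and *Spry2*. Its *Fgfr3* was at 11 and 6.6 CPM, against 73.2 and 59.3 in RGC-like cells.

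The rest of the pathway was counted in the same comparisons from lists of 61 other genes. Of 15 FGF ligands 11 were tested between progenitors and neurons, with 2 higher in progenitors, 5 lower and 4 not called. *Fgf2* was at 1.08 and 2.23 CPM in progenitors and 0.161 and 0.0861 in neurons (log2 fold change 3.54, SE 0.508, adjusted p = 0.000733), 25 and 51 of its UMIs being in RGC-like cells. *Fgf10* was at 0.124 and 0.219 CPM in progenitors and 1.99 and 2.64 in neurons (-3.90, adjusted p = 0.000108), and *Fgf9* at 0.29 and 0.438 against 2.68 and 2.14 (-2.89, adjusted p = 0.000165). *Fgf3* had 0 and 1 UMIs in progenitors and 51 and 45 in neurons. The ligands that passed the test were mostly higher in neurons, at levels of a few CPM. Those near 0 in 1 group passed the filter on low counts through the other group. Their directions therefore describe where they were detected. Of all genes tested, 32.3% were called higher and 34.9% lower in progenitors.

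Between the layers of excitatory neurons the ligands were split, with 2 of 5 tested higher in deep-layer cells and 1 lower. *Fgf18* was at 14 and 15.7 CPM in deep-layer and 3.22 and 3.75 in upper-layer cells (log2 fold change 2.12, SE 0.172, adjusted p = 3.28e-05), and *Fgf10* at 5.52 and 7.45 against 1.68 and 2.54 (1.64, adjusted p = 0.00302). *Fgf9* was higher in upper-layer cells, at 3.48 and 4.09 CPM against 0.552 and 0.668 (-2.58, adjusted p = 0.000522).

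*Fgfrl1*, a receptor without the kinase, was called higher in progenitors with 12.6 and 11.3 CPM against 1.06 and 1.02 (log2 fold change 3.36, SE 0.142, adjusted p = 1.53e-06). The receptor *Fgfr4* was at 0.414 and 0.394 CPM in progenitors and 1.65 and 1.58 in neurons (-2.15, adjusted p = 0.000473), with 4.74 and 4.37 in deep-layer cells. *Klb*, the third gene tested of this list of 4, was not called.

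Of the 11 other feedback inhibitors tested (of 12), 4 were higher in progenitors, 3 were lower and 4 were not called. *Il17rd*, an inhibitor of FGF signalling at the membrane, was at 8.98 and 10.2 CPM against 2.55 and 2.32 (log2 fold change 1.81, SE 0.137, adjusted p = 2.72e-05), and *Spry4* at 1.24 and 0.7 against 0.0939 and 0.158 (2.77, adjusted p = 0.00166). *Dusp4*, a further phosphatase of ERK, was higher in neurons like *Dusp6*, with 33.7 and 30.8 CPM against 7.2 and 6.26 (-2.42, adjusted p = 1.16e-06). Its classes differed from those of *Dusp6*, since *Dusp4* was at 41.1 and 37.9 CPM in immature neurons, where *Dusp6* was at 0.904 and 0.729. *Spry3* was at 0.538 and 0.35 CPM in progenitors and 1.37 and 1.33 in neurons (-1.75, adjusted p = 0.00233).

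Of 11 adaptors 4 were higher in progenitors, 3 lower and 4 not called, among them *Shc1* (log2 fold change 1.17, adjusted p = 0.000617) and *Sos2* (0.71, adjusted p = 0.000117) as higher and *Frs3* (-1.66, adjusted p = 8.02e-05) and *Grb2* (-0.86, adjusted p = 1.72e-05) as lower. Of 11 genes of Ras, Raf, MEK and ERK 2 were higher, 7 lower and 2 not called. *Map2k1*, which encodes MEK1, was at 33 and 37.9 CPM in progenitors and 13.7 and 15.2 in neurons (1.13, adjusted p = 5.19e-05), and *Mapk3*, which encodes ERK1, at 26.6 and 24.6 against 40.3 and 41.8 (-0.84, adjusted p = 5.33e-05). *Ksr1* (-0.76, adjusted p = 0.00084) and *Hras* (-0.67, adjusted p = 7.01e-05) were lower as well. The median log2 fold change of these lists was -0.07 for the adaptors and -0.21 for the cascade, beside -0.03 over all genes tested.

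Immediate early genes, which respond to ERK and also to other stimuli, dissociation among them, were tested for 7 of 8 genes, with 6 higher in progenitors and 1 lower. *Jun* was at 210 and 206 CPM in progenitors and 47.1 and 43.9 in neurons (log2 fold change 2.03, SE 0.0616, adjusted p = 3.95e-07), *Egr1* at 7.94 and 8.75 against 2.27 and 1.97 (1.82, adjusted p = 3.9e-05) and *Atf3* at 1.12 and 1.44 against 0.0939 and 0.043 (adjusted p = 0.000211). *Junb* was lower, at 1.37 and 0.7 against 5.11 and 4.69 (-2.40, adjusted p = 0.000198). *Jun* was at 303 and 291 CPM in RGC-like against 59.8 and 57.1 in IPC-like cells, moving with *Spry2* and the ETS factors. Its part in their levels was not tested.

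**Figure D4:**
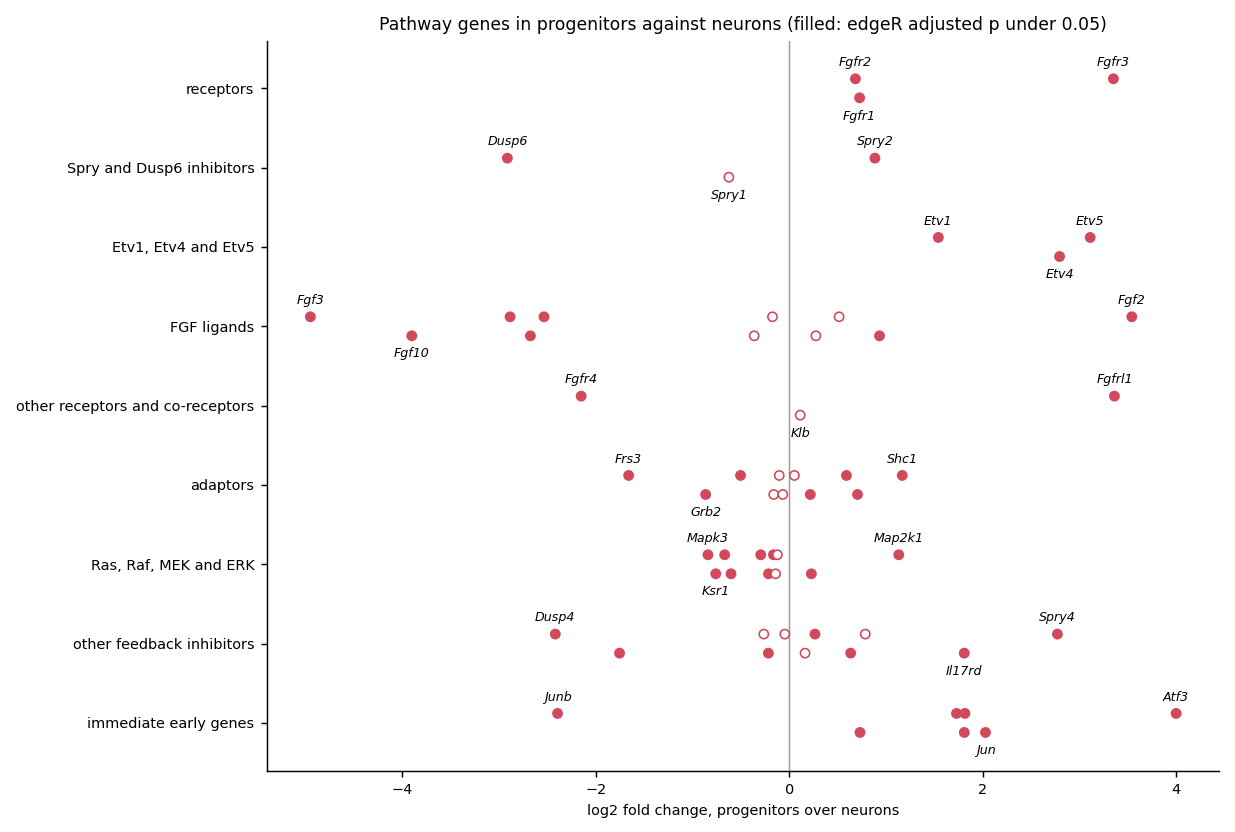
Log2 fold change of progenitors over neurons (x axis) for each gene tested of the members and of 6 further lists of the pathway (rows). Filled points passed an adjusted p under 0.05 (edgeR), and the place of *Fgf3*, with 1 UMI in progenitors, depends on the prior count of the fit. The receptors and ETS factors among the members lie right of 0, and the genes of the cascade lie near 0 on both sides.

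The lists were counted in the other comparisons too, and the shares of all genes called are those given above for each comparison. A gene low in 1 group can pass the filter on low counts through the other. Between RGC-like and IPC-like cells 4 of 5 ligands tested were higher in RGC-like cells (*Fgf2*, *Fgf18*, *Fgf1* and *Fgf15*) and none was lower, and of 9 other feedback inhibitors 5 were higher and 2 lower. Adaptors and the cascade were split there, with 2 higher and 4 lower of 11 and 2 higher and 2 lower of 11. *Gab1*, an adaptor, was higher in RGC-like cells (log2 fold change 1.13, adjusted p = 9.36e-06) and lower in GABAergic than in excitatory neurons (-1.20, adjusted p = 2.63e-05). Between IPC-like cells and immature neurons *Fgfrl1* (1.72, adjusted p = 0.00016) and *Il17rd* (1.12, adjusted p = 0.0114) were higher in IPC-like cells, as were *Map2k1* (0.93, adjusted p = 0.000113) and *Egr1* (2.20, adjusted p = 0.000871).

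Between GABAergic and excitatory neurons 7 of 10 other feedback inhibitors were higher in GABAergic cells and none was lower, *Il17rd* among them (log2 fold change 1.57, adjusted p = 0.000835). Of 11 ligands tested there, 5 were higher and 3 lower, with *Fgf15* at 5.56 (adjusted p = 1.36e-06). The scaffold *Ksr1* was higher in GABAergic cells (1.95, adjusted p = 1.49e-05) and *Fgfr4* was lower (-4.21, adjusted p = 0.000458). *Fos* was higher in GABAergic cells too, with 20.5 and 29.4 CPM against 2.58 and 2.48 (3.17, adjusted p = 8.44e-06), beside the higher *Spry2* and ETS factors of the same cells. Between deep-layer and upper-layer cells 1 of 9 other feedback inhibitors was higher (*Dusp4*, 1.08, adjusted p = 8.22e-05) and 2 were lower, and between cycling and other RGC-like cells 1 of 9 was higher (*Spred1*, 0.32, adjusted p = 0.0348).

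The genes with the most similar pattern were sought among 10275 genes, those with at least 20 CPM in at least 1 of 14 groups of cells, members left out, by Pearson's r over the 14 groups of log2 levels with 10 CPM added. The points share libraries and depth, so r is a description. The 14 groups included the pericyte-like cells, where *Spry1* had a mean of 50.3 CPM, beside 4.46 in the next highest group. The r of *Spry1* therefore rests largely on that group. *Spry2*, *Dusp6* and *Etv4* had their highest mean there too. For the receptors the closest were *Mfsd2a* (r = 0.919) for *Fgfr1*, *Epdr1* (0.926) for *Fgfr2* and *Cd101* (0.962) for *Fgfr3*. For the inhibitors they were *Ifi27* (0.989) for *Spry1*, *Id3* (0.936) for *Spry2* and *Sox5os4* (0.950) for *Dusp6*. For the ETS factors they were *Tmem123* (0.928) for *Etv1*, *Slc9a3r1* (0.988) for *Etv4* and *E2f5* (0.935) for *Etv5*.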

How the data were processed

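Cortex was dissociated with papain by the authors, who made 10x 3′ libraries and ran Cell Ranger (7.0.0 and mm10 in the submitters' processing notes, 7.1.0 in the matrix header). Whether intron reads were counted is not given in the sources used here. The deposited matrices hold raw counts (UMIs of each gene in each barcode), 124318613 in embryo 4 (12825 barcodes) and 117679925 in embryo 5 (12289). Of 6 embryos listed at this stage, the others were not analysed here.

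Barcodes with fewer than 1000 detected genes (1772 and 765) or over 10% mitochondrial counts (174 and 56) were left out, and 947 and 1052 doublets were removed, scored against 2 simulated doublets per cell at a rate of 0.8% per 1000 cells. Counts scaled to 10000 per cell gave 23 clusters (2000 variable genes, 30 principal components, 20 neighbours, Leiden resolution 1.0; Python 3.11.15 with scanpy 1.11.5, scikit-learn 1.9.0 and leidenalg 0.10.2). The 70 genes of the pathway lists, members included, were kept out of the variable genes. A cluster was named from 21 marker classes where the mean log2 ratio of marker CPM (10 CPM added) was at least 0.5 and at least 3 markers were detected in 10% of its cells, a rule written after the files were seen. The clusters of cycling RGC-like and cycling IPC-like cells and those led by *Tfap2d* and *Mctp1* had none of their own markers among their 10 leading genes. Pericyte-like, fibroblast-like and haemoglobin-led cells and the unnamed clusters were left outside the classes.

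Sums of UMIs over each class of an embryo were tested with edgeR 4.0.16 (TMM, filterByExpr, quasi-likelihood, R 4.3.3), Benjamini-Hochberg adjusted over all genes tested, with only the groups compared in a fit. Standard errors were the absolute log2 fold change divided by the root of the F statistic. The deviations of both sums of an embryo correlated at 0.193, 0.224, 0.210, 0.173, 0.280 and 0.201 in the 6 comparisons, and as they share an animal the number of the embryo pairs them. On simulated counts for progenitors against neurons (17956 genes, 191 of them changed), 84.7% of 2-fold and 94.6% of 4-fold changes were recovered and 3.39% of calls were false. The simulated counts had a common dispersion for all genes of a comparison, few changed genes and sums drawn independently, unlike the data. The simulated shares therefore describe the test under those settings and are not the rates of the real comparisons. False calls were 5.73% for IPC-like cells against immature neurons (14548 genes) and 7.78% for GABAergic against excitatory neurons (17083 genes, 74.5% of 2-fold changes recovered), and at most 3.93% in the other comparisons. Alternatives were DESeq2 1.42.0 and its size factors, no filter on low counts, a replicate block, leaving out each embryo, 1 fit over all classes, other limits on cells, doublets kept, resolutions 0.5 and 2, cells thinned to 2000 UMIs, pathway genes in the clustering and cells classed by markers without clusters. Putting the cluster with RGC and GABAergic markers among the progenitors was added after the data were seen.

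The members and gene lists were chosen with earlier results of these data known. Named are all members and, of each other list, up to 4 called genes with the largest change, or all where up to 5 were called, in each comparison described. Genes that name or lead a cluster, and those most similar in pattern (the closest for each member), are named besides. Promoter sequences and coordinates are from RefSeq (GRCm38.p6).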

Additional observations from a re-analysis of the deposited data

Results flagged for a closer look

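These levels lay outside the classes compared and above them, and no comparison was made. *Fgfr1* had a mean of 357 CPM in an unnamed cluster of 122 cells led by *Neurod1*, *Zfp385b* and *Stxbp5l*, with 249 in embryo 4 and 466 in embryo 5, where RGC-like cells, the highest class compared, had 151 and 146. In pericyte-like cells, 51 in embryo 4 and 45 in embryo 5, *Spry1* had a mean of 50.3 CPM (38.7 and 61.8), where the highest values among the classes compared were 5.08 and 3.76. *Spry2* had a mean of 34.9 CPM in the same pericyte-like cells (32.0 and 37.9), above the 15.8 and 14.9 of RGC-like cells, and *Etv4* a mean of 16.2 CPM (18.5 and 14.0), above 9.27 and 9.01.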

How the results depend on the processing

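Of the 54 member results (9 genes in 6 comparisons), 31 kept their direction and their side of the threshold under every alternative that gave a test, 7, 8, 4, 5, 4 and 3 of 9 in the order of progenitors against neurons, RGC-like against IPC-like, IPC-like against immature neurons, GABAergic against excitatory, deep-layer against upper-layer and cycling against other RGC-like cells. Of 703 tested values from these alternatives (17 more had no estimate, the gene having been filtered out), 19 turned direction. Of those that kept it, 33 lost a call and 14 gained one. Calls lost or gained among the 19 that turned are not in these 2 counts. The genes called moved by over 1.5 times with thinned cells from 7390 to 4670 (RGC-like against IPC-like), from 7516 to 4959 (IPC-like against immature neurons), from 4921 to 2471 (deep-layer against upper-layer, 3104 with DESeq2) and from 1702 to 939 (cycling, 1123 with DESeq2, 2839 with no filter on low counts and 4072 with the replicate block). Fewer UMIs and fewer cells enter the thinned sums, and the cause of these moves was not tested. The replicate block changed 1 member's call, that of *Fgfr2* in GABAergic against excitatory neurons (0.20, adjusted p = 0.0306).

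Among the alternatives that gave a test, directions turned in these log2 fold changes. *Spry1* was at 0.59 for progenitors against neurons with cells classed without clusters, and at 0.10 for cycling RGC-like cells with at least 2000 detected genes, where *Dusp6* was at 0.20. For IPC-like cells against immature neurons *Spry2* was at 0.0194 at resolution 0.5 and *Dusp6* at -0.00976 with at least 2000 genes, -0.13 with at most 5% mitochondrial counts and -0.21 at resolution 0.5. For deep-layer against upper-layer cells *Fgfr2* was at -0.0692 with at least 500 genes, -0.21 with at least 2000 (adjusted p = 0.0384) and -0.0591 with at most 5% mitochondrial counts, *Fgfr3* at 0.0274 with at least 500 genes and 1.06 with doublets kept (adjusted p = 0.0145), and *Etv1* at 0.25 with at least 500 genes, 0.41 with doublets kept, 0.0567 at resolution 0.5 and 0.33 at resolution 2. For cycling cells *Etv4* was at -0.31 with at most 5% mitochondrial counts, -0.17 with doublets kept and -0.10 with pathway genes in the clustering. The cause was not tested.

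Leaving out an embryo leaves no residual degrees of freedom, so it gave values and no counts of calls. For progenitors against neurons *Fgfr3* was then between 3.33 and 3.34, *Etv5* between 3.03 and 3.14 and *Dusp6* between -3.03 and -2.84. Other directions depended on the embryo. For deep-layer against upper-layer cells *Fgfr3* was between -0.41 and 0.19. For cycling against other RGC-like cells *Spry2* was between -0.55 and 0.17 and *Fgfr3* between -0.00956 and 0.21. These results were not called in the main fit. Resolution 0.5 left no other RGC-like cluster, so the cycling comparison was not run there. With 2 embryos and levels of 1 or 2 CPM, *Spry1* in particular was near the limit of what these depths show.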
